A study of Mus musculus with 6 samples.

Results

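The neurotrophins and their receptors were examined as a set of 6 genes, *Bdnf*, *Ntf3*, *Ntrk2*, *Ntrk3*, *Ngfr* and *Sort1*, picked by name from the 25239 gene symbols listed in the counts. Hippocampal RNA had been sequenced from 3 male WT mice (Ube3a m+/p+) and 3 male mice without a working maternal copy (Ube3a m-/p+), with 1 library per mouse, to ask how gene expression differs when UBE3A is lost. All mice were of the C57BL/6 strain and 6 to 8 weeks old. The Ube3a m-/p+ mice, a model of Angelman syndrome, carry a non-functional maternal copy and an intact paternal copy of *Ube3a* in every cell of the body, and the paternal copy is silenced in most neurons but not in other cell types. Each library is whole hippocampus, so neurons, glia, vessels and any tissue carried over at dissection share the counts.

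Neurotrophins are secreted growth factors that keep neurons alive and adjust the strength of their synapses. They are made as precursors that proteases cut to the mature form. Mature BDNF, the product of *Bdnf*, acts on the receptor tyrosine kinase TrkB (*Ntrk2*), and neurotrophin-3, the product of *Ntf3*, acts mainly on TrkC (*Ntrk3*). The receptor p75NTR (*Ngfr*) binds every mature neurotrophin, and together with sortilin (*Sort1*) it binds the uncut precursors. In the hippocampus BDNF is made mostly by excitatory neurons in response to activity, and TrkB signalling is needed for long-term potentiation. The gene counts cannot separate the full-length TrkB and TrkC kinases from the truncated receptors that the same genes encode, and truncated TrkB is abundant in astrocytes.

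The WT libraries held 7293272 to 8675252 reads on genes and the Ube3a m-/p+ libraries 8871052 to 11314409. Levels are given as CPM, counts scaled to 1000000 gene counts per library. For *Ube3a* itself WT mice 1, 2 and 3 stood at 104, 141 and 151 CPM. Ube3a m-/p+ mice 1, 2 and 3 stood at 96.8, 82.9 and 80.6 CPM. Every Ube3a m-/p+ mouse lay below every WT mouse, as held for 14.2% of the 14445 genes tested, and the mice numbered 1 nearly touched. *Ube3a* shares 1803 bp of exon with *Snhg14* on the opposite strand, which is listed with 3194 counts in the 6 libraries. Expression was compared by edgeR's quasi-likelihood test over the 14445 genes that passed a filter on low counts. A gene was called where the p adjusted after Benjamini and Hochberg was below 0.05 and the fold change exceeded 1.2, as held for 2.01% of the genes tested (1.02% higher and 0.99% lower in Ube3a m-/p+ mice). The libraries stood apart in how expression followed the GC content of transcripts. Across 14201 genes, a gene's GC content and its departure from the 6-library mean had a Spearman's rho of -0.506 and -0.571 for WT mice 2 and 3, of 0.526 and 0.528 for Ube3a m-/p+ mice 2 and 3, and of 0.0455 and 0.0589 for the mice numbered 1. The fold change of each of the 6 genes is therefore given also after a correction of every library for GC content and transcript length. The correction is fitted without regard to genotype, so it can also take out a genotype difference that follows GC content or length. Which fit is nearer to the genotype difference was not tested. With this correction the log2 fold change of *Ube3a* moved from -0.58 to -0.20 (edgeR, adjusted p = 0.241), and *Ube3a* was no longer called. The labelled tissue was matched by its markers, since all 7 granule cell, all 12 pyramidal cell and all 8 interneuron markers passed the filter.

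All 6 genes passed the filter on low counts and 0 of them were called by edgeR, where 2.01% of all genes were called (1.02% higher, 0.99% lower). DESeq2 called 951 of 14445 genes and 0 of the 6, but it gave no adjusted p for *Ntf3* and *Ngfr*, so these could not be called by it. In the fit *Bdnf* and *Ntrk3* differed by -13.3% and -12.6% in Ube3a m-/p+ mice, and *Ngfr*, the rarest of them, stood at 2.05 times its WT level. *Ntf3* had a higher mean and *Ntrk2* a lower mean, with intervals that include no change, and *Sort1* had nearly the same level in both genotypes. At an unadjusted p below 0.05 there were 3 of the 6, with *Bdnf* and *Ntrk3* lower and *Ngfr* higher, of which *Ngfr* passed the filter only through the Ube3a m-/p+ mice, and 24.6% of all genes tested (12.4% lower, 12.2% higher). No overlap between WT and Ube3a m-/p+ values was seen for 2 of the 6, *Bdnf* and *Ntrk3*, both lower, and for 25% of all genes (14.2% lower, 10.8% higher). Over the 6 genes the median log2 fold change was -0.072, and over all genes tested it was 0.0025.

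**Figure D1:**
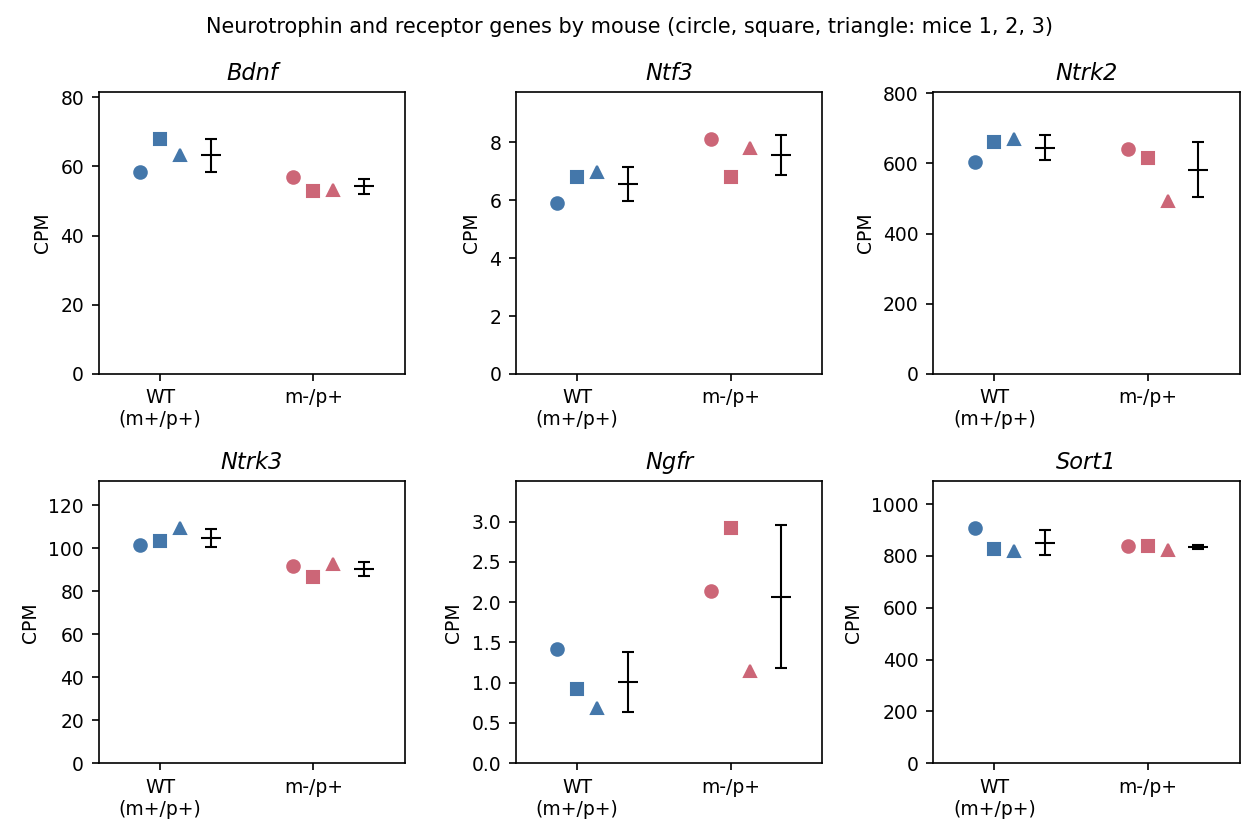
Expression of the 6 genes in CPM on total gene counts (vertical axes start at 0 and differ between panels), with one symbol per mouse and, beside the points, the mean and SD of 3 mice. The WT and Ube3a m-/p+ points are separate for *Bdnf* and *Ntrk3* and overlap for *Ntf3*, *Ntrk2*, *Ngfr* and *Sort1*.

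Among the ligands, *Bdnf* lies on chromosome 2 of GRCm38 from 109674700 to 109727007 and has 11 annotated transcripts (GENCODE M21). These start at several alternative first exons that are joined to the same coding exon, and the gene count adds them up. RefSeq (GRCm38.p6) gives 7 promoter windows of 300 bases for it, from 250 bases before a start to 50 bases from it on. The window shown holds the start that is known for its response to neuronal activity. It is printed because its element TCACGTCA, bound by CREB, is the classical link from calcium influx to *Bdnf*. The capitals mark this element, which begins 38 bases before the start on the plus strand.
Bdnf, chr2:109692186-109692485: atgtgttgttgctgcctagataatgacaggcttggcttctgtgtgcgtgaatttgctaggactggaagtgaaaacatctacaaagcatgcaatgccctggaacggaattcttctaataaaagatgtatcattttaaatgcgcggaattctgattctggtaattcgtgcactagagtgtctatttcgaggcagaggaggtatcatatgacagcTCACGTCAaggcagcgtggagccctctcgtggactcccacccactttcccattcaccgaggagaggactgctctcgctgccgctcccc
Searched on both strands, TCACGTCA occurred in 145 of 32851 promoter windows of this length (0.441%). Its end reads TGACG on the opposite strand, letters that occurred in 20.8% of the windows. The palindrome TGACGTCA occurred in 1.79% of the windows and in 0 of the 7 of *Bdnf*. A match is a matter of letters, and the counts do not show from which start the reads came.

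WT mice 1, 2 and 3 expressed *Bdnf* at 58.4, 67.9 and 63.3 CPM. Ube3a m-/p+ mice 1, 2 and 3 expressed it at 56.8, 52.8 and 53.04 CPM. The genotypes did not overlap but nearly touched, with the highest Ube3a m-/p+ value and the lowest WT value both from mice numbered 1. The means were 63.2 ± 4.74 CPM (SD, n = 3) and 54.2 ± 2.26 CPM (SD, n = 3). The log2 fold change was -0.21 (standard error, SE, 0.095, 95% interval -0.41 to -0.0041, edgeR, adjusted p = 0.194). An exact permutation test of the mice gave a two-sided p of 0.1, the smallest that 3 mice against 3 allow. With the GC and length correction the log2 fold change was 0.028 (SE 0.083, edgeR, adjusted p = 0.923), within its SE of 0. The longest *Bdnf* transcript has a GC content of 40.9%, the lowest of the 6 genes. Without both mice numbered 1, a comparison added after seeing the data, *Bdnf* was called, with a log2 fold change of -0.30 (edgeR, adjusted p = 0.0176), in a fit that called 28.3% of all genes. In whole tissue, fewer cells that express a gene and less RNA per cell cannot be told apart. *Bdnf* shares 896 bp of exon with the antisense gene *Gm45346*, which is not listed in the counts, and whether the counting used strands is not given in the sources used here.

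*Ntf3*, which in the adult hippocampus is made chiefly in dentate granule cells, lies on chromosome 6 from 126101412 to 126166910. It was scarce, with 391 counts in the 6 libraries. WT mice 1, 2 and 3 had 5.89, 6.801 and 6.99 CPM, and Ube3a m-/p+ mice 1, 2 and 3 had 8.12, 6.81 and 7.79 CPM. WT mouse 3 was above Ube3a m-/p+ mouse 2, so the genotypes overlapped. The means were 6.56 ± 0.589 CPM (SD, n = 3) and 7.57 ± 0.683 CPM (SD, n = 3), and the log2 fold change was 0.22 (95% interval -0.18 to 0.63, edgeR, adjusted p = 0.495). After the GC and length correction the log2 fold change was 0.17 (SE 0.197, edgeR, adjusted p = 0.753). Mice of a genotype differed by no more than counting noise, since the coefficient of variation was 8.98% in WT mice and 9.02% in Ube3a m-/p+ mice where counting alone gives 13.7% and 11.4%. The interval reaches from a level 11.9% lower to one 54.7% higher, so it includes a small decrease, no change and a moderate increase. The summed CPM of the 7 granule cell markers was 549.8 to 628 for WT and 559 to 609.6 for Ube3a m-/p+ mice. Of these markers 0 were called and 2 had an unadjusted p below 0.05, both higher.

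Among the Trk receptors, *Ntrk2* (chromosome 13, 58806569 to 59133970) was the more abundant, with 33560 counts in the 6 libraries. WT mice 1, 2 and 3 showed 605, 661 and 669.5 CPM, and Ube3a m-/p+ mice 1, 2 and 3 showed 640.2, 614 and 493 CPM. Ube3a m-/p+ mouse 3 lay below the other 5 mice, and the other values were mixed between the genotypes. The log2 fold change was -0.13 (SE 0.098, 95% interval -0.34 to 0.076, edgeR, adjusted p = 0.424). It rested mostly on Ube3a m-/p+ mouse 3, since it was -0.029 without that mouse (edgeR, adjusted p = 0.902). The coefficient of variation was 13.5% in Ube3a m-/p+ mice and 5.47% in WT mice, while counting noise alone gives 1.3% and 1.38%, so depth does not limit this gene. With both mice numbered 1 left out it was -0.25 (edgeR, adjusted p = 0.0432), short of the fold change of 1.2. After the GC and length correction the log2 fold change was -0.065 (SE 0.072, edgeR, adjusted p = 0.742).

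Astrocytes hold much of the truncated TrkB, and their markers were set beside *Ntrk2*. The summed CPM of 10 astrocyte markers was 4787, 5332 and 5254 for WT mice 1, 2 and 3, whereas Ube3a m-/p+ mice 1, 2 and 3 had 4505, 4190.3 and 4205.5, so these sums did not overlap. Of the 10 astrocyte genes 0 were called, and 5 had an unadjusted p below 0.05, all lower in Ube3a m-/p+ mice, where 12.4% of all genes were. *Slc1a2*, the glutamate transporter that makes up most of the sum, averaged 3292 CPM in WT and 2600.2 CPM in Ube3a m-/p+ mice, while 4 of the 10 markers had a positive log2 fold change. The median of their log2 fold changes was -0.18, and -0.073 after the GC and length correction. Ube3a m-/p+ mice 2 and 3 had nearly equal marker sums but 614 and 493 CPM of *Ntrk2*. Sums of 9 oligodendrocyte markers, at 8285 to 8425 CPM for WT and 6929 to 7888 CPM for Ube3a m-/p+ mice, and of 8 microglia markers, at 431 to 464 and 408 to 421 CPM, did not overlap either, although 3 of the 9 and 4 of the 8 had a positive log2 fold change. The part of glia in the level of *Ntrk2* was not tested.

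*Ntrk3* (chromosome 7, 78175959 to 78738012), the receptor of neurotrophin-3 and in the hippocampus mainly a neuronal gene, had 101, 103 and 109 CPM in WT mice 1, 2 and 3. Ube3a m-/p+ mice 1, 2 and 3 had 91.8, 86.7 and 92.7 CPM. The genotypes did not overlap, and the spread within each was small, with means of 104.7 ± 4.09 CPM (SD, n = 3) and 90.4 ± 3.22 CPM (SD, n = 3). The log2 fold change was -0.19 (SE 0.085, 95% interval -0.37 to -0.013, edgeR, adjusted p = 0.174), and the exact permutation test gave a two-sided p of 0.1. After the GC and length correction it was 0.0021 (SE 0.0998, edgeR, adjusted p = 0.996). The GC content of its longest transcript was 43.6%. Its level varied by 3.91% in WT mice and 3.56% in Ube3a m-/p+ mice, close to the 3.43% and 3.29% of counting noise. Without both mice numbered 1 the log2 fold change was -0.23 (edgeR, adjusted p = 0.037), which is under the fold change of 1.2 and was not called. The summed CPM of 8 interneuron markers, at 683 to 705 for WT and 616 to 639.9 for Ube3a m-/p+ mice, did not overlap, with 4 markers above and 4 below 0 on the log2 scale. The summed CPM of 8 general neuron markers, at 7034 to 7293 and 6820 to 7177, overlapped. The part of these cells in *Bdnf* and *Ntrk3* was not tested.

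Of the receptors without a kinase, *Ngfr* (chromosome 11, 95568818 to 95587735) was near the limit of detection. WT mice 1, 2 and 3 gave 12, 8 and 5 reads on it, and Ube3a m-/p+ mice 1, 2 and 3 gave 19, 33 and 12 reads. The filter asked for 10 counts at the median depth in at least 3 libraries, and *Ngfr* reached this in 1 WT and 3 Ube3a m-/p+ mice, so it was tested only because of its higher values in the Ube3a m-/p+ mice. In CPM, WT mice 1, 2 and 3 had 1.41, 0.922 and 0.686 and Ube3a m-/p+ mice 1, 2 and 3 had 2.14, 2.92 and 1.14. Ube3a m-/p+ mouse 3 lay below WT mouse 1, so the genotypes overlapped. The exact 95% Poisson intervals, which cover counting error only, were 0.73 to 2.47, 0.398 to 1.82 and 0.223 to 1.6 CPM for WT mice 1, 2 and 3, and 1.29 to 3.34, 2.01 to 4.1 and 0.589 to 1.99 CPM for Ube3a m-/p+ mice 1, 2 and 3. Those of Ube3a m-/p+ mice 1 and 3 overlapped all 3 WT intervals. The log2 fold change was 1.03 (SE 0.44, 95% interval 0.099 to 1.97, edgeR, adjusted p = 0.164) and the exact permutation p was 0.2, two-sided. It leaned on Ube3a m-/p+ mouse 2, without which it was 0.69 (edgeR, adjusted p = 0.53). After the GC and length correction it was 0.83 (SE 0.43, edgeR, adjusted p = 0.392), with the same direction.

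In the adult forebrain p75NTR is carried by cholinergic fibres from the septum, whose cell bodies lie outside the hippocampus, and by some cells of vessels and meninges. The summed CPM of 9 meninges and fibroblast markers was 109, 91.5 and 149.7 for WT mice 1, 2 and 3. Ube3a m-/p+ mice 1, 2 and 3 had sums of 169.99, 178 and 96.95. *Igf2* made up most of the mean sums, at 66.6 of 117 CPM in WT and 80.3 of 148 CPM in Ube3a m-/p+ mice. The mice with the highest *Ngfr*, Ube3a m-/p+ mice 1 and 2, also had the highest sums, whereas WT mouse 3, next in the order of sums, had the lowest *Ngfr*. The 8 choroid plexus markers, which tell how much of that tissue was carried over, summed to 619, 106 and 2205 CPM for WT mice 1, 2 and 3 and to 2296, 1632 and 111 CPM for Ube3a m-/p+ mice 1, 2 and 3. All 9 markers had a positive log2 fold change and 1 was called (*Col1a1*, 0.73, edgeR, adjusted p = 0.0416), a call lost with the GC and length correction (0.55, edgeR, adjusted p = 0.0751). The sums of 9 endothelial and mural markers lay in the other direction, at 399 to 428 CPM for WT and 353 to 383 CPM for Ube3a m-/p+ mice, with 1 called, *Rgs5* (-0.51, edgeR, adjusted p = 0.0387). *Rgs5*, a pericyte gene, averaged 126.8 CPM in WT and 87.9 CPM in Ube3a m-/p+ mice and was not called with the correction (-0.29, edgeR, adjusted p = 0.0751), and 4 of the 9 markers had a positive log2 fold change. The part of carried-over tissue in the *Ngfr* counts was not tested.

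**Figure D2:**
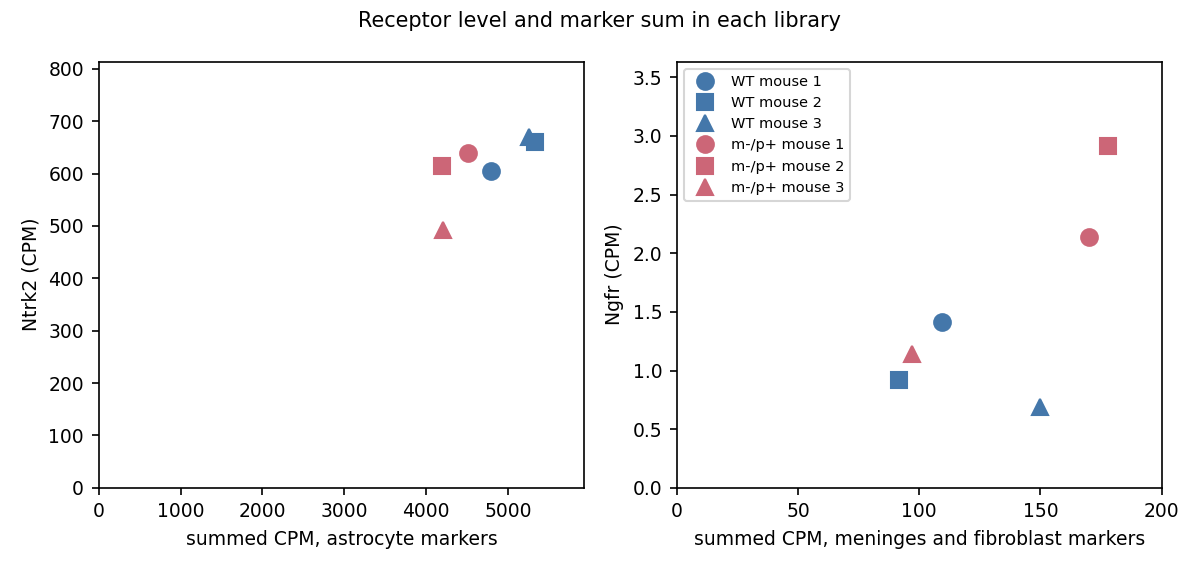
Level of *Ntrk2* against the summed CPM of 10 astrocyte markers (left) and of *Ngfr* against the summed CPM of 9 meninges and fibroblast markers (right), one point per library, with axes from 0. The astrocyte sums of the genotypes are separate while *Ntrk2* overlaps, and the highest *Ngfr* levels, 2.92 and 2.14 CPM, stand at the highest meninges sums.

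The promoter of *Ngfr* is printed because it is the most GC-rich of the windows found, at 71.7% GC, in the gene whose transcript has the highest GC content of the 6, 58.6%. Its capitals mark the letters GGGCGG on either strand, the core of the element bound by Sp1, at 4 places that begin 114, 72, 63 and 16 bases before the start. The gene is on the minus strand.
Ngfr, chr11:95587649-95587948: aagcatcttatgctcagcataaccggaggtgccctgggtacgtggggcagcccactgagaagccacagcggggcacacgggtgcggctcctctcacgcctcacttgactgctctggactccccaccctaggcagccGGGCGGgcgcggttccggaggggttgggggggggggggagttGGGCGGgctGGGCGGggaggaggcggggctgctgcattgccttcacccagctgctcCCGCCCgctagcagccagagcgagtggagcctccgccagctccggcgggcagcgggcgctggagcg
These letters occurred at least once, on either strand, in 35.7% of all 32851 windows. The share of windows that hold them at 4 places was not counted. RefSeq windows were matched for 4 of the 6 genes, with 2 windows for *Ntf3* and 1 each for *Ntrk2* and *Ngfr*. *Ntrk3* and *Sort1* had none in the table used.

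*Sort1* (chromosome 3, 108284082 to 108361511), which sorts neurotrophin precursors in the Golgi and also takes up other ligands, was the most abundant of the 6 genes, with 46415 counts in the 6 libraries. WT mice 1, 2 and 3 had 907, 826 and 820.3 CPM, and Ube3a m-/p+ mice 1, 2 and 3 had 837, 837 and 824 CPM. WT mouse 1 was the highest, and the other 5 mice lay between 820.3 and 837 CPM. The log2 fold change was -0.013 (SE 0.081, edgeR, adjusted p = 0.936), and its 95% interval of -0.19 to 0.16 reaches from a level 12.1% lower to one 11.7% higher. After the GC and length correction it was -0.012 (SE 0.073, edgeR, adjusted p = 0.965). The sign turned to 0.037 when WT mouse 1 was left out (edgeR, adjusted p = 0.788). In Ube3a m-/p+ mice its coefficient of variation, 0.899%, was below the 1.08% of counting noise. An antisense gene, *Gm12523*, covers 338 bp of its exons and is not listed in the counts.

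**Figure D3:**
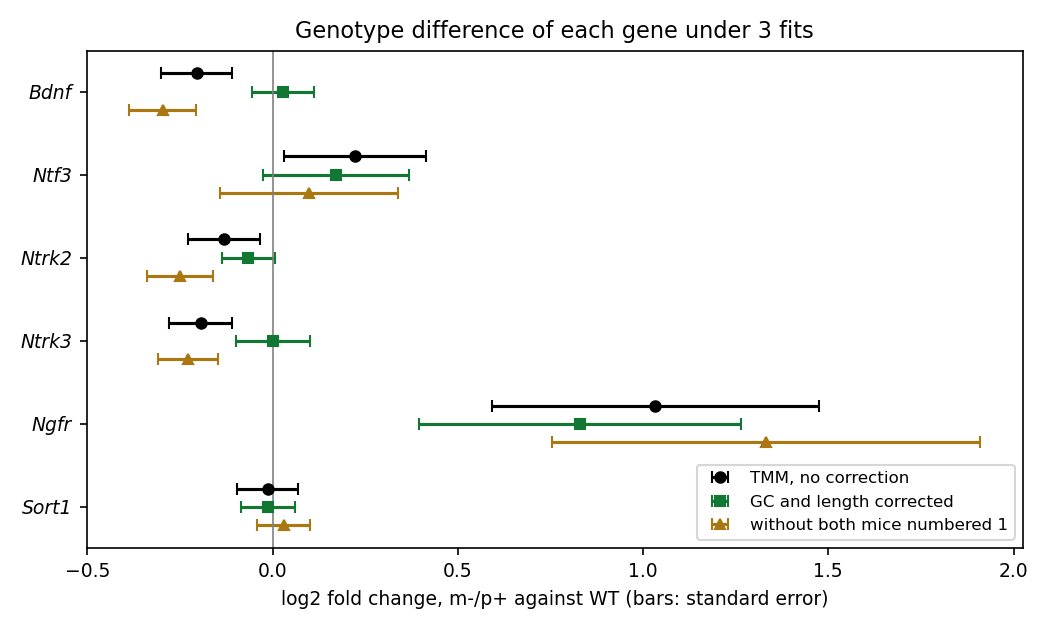
Log2 fold change of Ube3a m-/p+ against WT mice for the 6 genes in 3 fits, with the standard error as bars: edgeR with TMM scaling (circles), with the GC and length correction (squares), and without both mice numbered 1 (triangles). *Bdnf* and *Ntrk3* move from -0.21 and -0.19 to 0.028 and 0.0021 with the correction, and *Ngfr* stays above 0 in all 3 fits.

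Levels of different genes were compared per kb of annotated exon, in CPM per kb, as the mean of 3 WT mice. The order was *Sort1* (112 ± 6.38, SD), *Ntrk2* (33.4 ± 1.83), *Bdnf* (10.2 ± 0.762), *Ntf3* (3.83 ± 0.344), *Ntrk3* (3.47 ± 0.136) and *Ngfr* (0.292 ± 0.108). The neighbours *Ntf3* and *Ntrk3* changed places when the length of the longest transcript was used in place of all exons, at 4.42 and 5.31 CPM per kb, so their order is not settled. The other neighbours kept their order with either length and were further apart than their spread. In Ube3a m-/p+ mice the order was the same, with 110.03, 30.2, 8.72, 4.42, 2.996 and 0.5996 CPM per kb of exon.

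Ratios of 2 genes within a library do not depend on the scaling between libraries. For every 100 reads on *Ntrk2* there were 16.8, 15.6 and 16.3 reads on *Ntrk3* in WT mice 1, 2 and 3. Ube3a m-/p+ mice 1, 2 and 3 had 14.3, 14.1 and 18.8. There were 9.66, 10.3 and 9.46 reads on *Bdnf* in the WT mice and 8.87, 8.59 and 10.8 in the Ube3a m-/p+ mice. In both ratios Ube3a m-/p+ mouse 3, which had the lowest *Ntrk2*, was the highest mouse and the other Ube3a m-/p+ mice were the lowest. The log2 ratios differed between the genotypes by -0.057 for *Ntrk3* (exact permutation test, two-sided p = 0.8) and by -0.065 for *Bdnf* (exact permutation test, two-sided p = 0.6). For *Ngfr* to *Ntrk2* the difference was 1.15 and for *Sort1* to *Ngfr* it was -1.03, each with a two-sided p of 0.2 in the exact permutation test.

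The 6 genes did not move as 1 block across the libraries. Pearson's r between log2 CPM of *Bdnf* and *Ntrk3* was 0.84 over 6 libraries and that of *Ngfr* and *Ntrk3* was -0.88, as a description of points that share the genotypes and the GC gradient. Of 12001 other genes with a mean of at least 5 CPM, those most like *Bdnf* were *Mkx* and *Jazf1* (r of at least 0.998), and those most like *Ntrk3* were *Tpd52* and *Neurod1* (0.998). *Spty2d1* and *Smad4* were closest to *Ntrk2* (0.998 and 0.997) and *Uros* and *Tm4sf1* to *Ntf3* (0.988 and 0.983). *Dnmt3a* and *Pold2* were closest to *Ngfr* (0.996 and 0.992) and *Acot6* and *Bcor* to *Sort1* (0.972 and 0.950). Among so many genes and 6 libraries, values this high describe the libraries only.

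Other genes of the neurotrophin pathway were taken from 8 lists by function, with 121 of 129 listed symbols tested. Of these 3 were called, against 2.01% of all genes, namely *Gipc1* and *Hap1*, which rose, and *Serpini1*, which fell. At an unadjusted p below 0.05 there were 40 of the 121, with 21 higher and 19 lower, against 24.6% of all genes (12.2% higher, 12.4% lower). After the GC and length correction there were 14 of the 121 (edgeR), against 2017 of 14201 genes. Their median log2 fold change was -0.0014, with 59 above 0 and 62 below 0. *Hap1*, the huntingtin-associated protein that helps carry BDNF vesicles along axons, averaged 118 ± 8.18 CPM in WT and 162 ± 27.3 CPM in Ube3a m-/p+ mice (SD, n = 3), for a log2 fold change of 0.47 (edgeR, adjusted p = 0.0427). *Gipc1*, an adaptor of Trk receptors on endosomes, averaged 27.7 ± 4.57 and 41.0 ± 5.44 CPM (SD, n = 3), for a log2 fold change of 0.59 (edgeR, adjusted p = 0.0406). *Serpini1*, the neuronal inhibitor of tissue plasminogen activator, averaged 173.6 ± 13.7 and 131 ± 9.96 CPM (SD, n = 3), for a log2 fold change of -0.39 (edgeR, adjusted p = 0.0408). After the GC and length correction none of these 3 was called, with log2 fold changes of 0.26 for *Hap1*, 0.27 for *Gipc1* and -0.067 for *Serpini1*. All 3 calls were also lost when WT mouse 2, WT mouse 3, Ube3a m-/p+ mouse 2 or Ube3a m-/p+ mouse 3 was left out, which brought the pathway count to 0, with 23 to 25 genes at an unadjusted p below 0.05. The 1 pathway gene called after the correction, named after its values were seen, was *Arc*, an activity-induced gene of synapses, at -0.38 (edgeR, adjusted p = 0.023), where 0.648% of all genes were called. Without the correction *Arc* was at -0.16 (edgeR, adjusted p = 0.34).

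**Figure D4:**
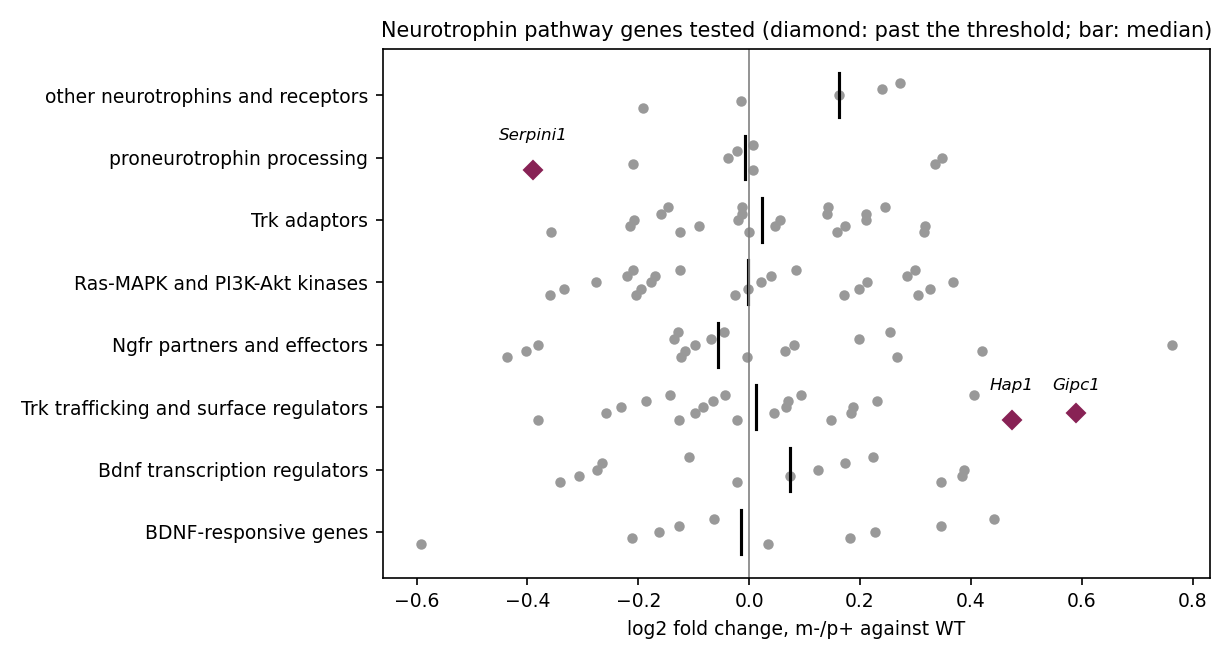
Log2 fold change of Ube3a m-/p+ against WT mice for the 121 tested genes of 8 pathway lists, with 1 point per gene, diamonds for the 3 genes called and a bar for the median of each list. The medians lie between -0.057 and 0.16, with genes on both sides of 0 in every list.

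Of the other ligands and receptors, *Ntf5*, which encodes neurotrophin-4, had 15 counts in the 6 libraries and was under the filter. In the sortilin family, *Sorcs2*, a partner of p75NTR for the BDNF precursor, was at 0.27 (edgeR, adjusted p = 0.128) and *Sorcs3* at 0.16 (edgeR, adjusted p = 0.369), and after the GC and length correction they were at 0.12 and 0.18. Of 22 Trk adaptors 0 were called, with the smallest p for *Sos1* (-0.36, edgeR, adjusted p = 0.0722) and *Frs2* (-0.22, edgeR, adjusted p = 0.154), which were at -0.089 and -0.061 after the correction. None of 23 kinases of the Ras-MAPK and PI3K-Akt routes was called either, with the smallest p for *Mapk3*, which encodes ERK1 (0.30, edgeR, adjusted p = 0.0649), and its activator *Map2k2* (0.33, edgeR, adjusted p = 0.0744), which were at 0.070 and 0.057 after the correction. Without the correction an unadjusted p below 0.05 was found for 4 of the adaptors (2 higher, 2 lower) and 11 of the kinases (5 higher, 6 lower). In that fit 24.6% of all genes had one.

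The counts at an unadjusted p below 0.05 that follow are from the fit without the correction. They stand against the same 24.6% of all genes (12.2% higher, 12.4% lower). Among 18 partners and effectors of p75NTR 0 were called and 5 had such a p (3 higher, 2 lower). Of these *Traf6* was at -0.44 (edgeR, adjusted p = 0.0554) and *Arhgdia* at 0.27 (edgeR, adjusted p = 0.0787). After the correction *Traf6* was at -0.31 and *Arhgdia* was near 0, at -0.018. The partner furthest from 0, picked after its values were seen, was *Bex3*, which binds p75NTR, at 0.76 (SE 0.39, edgeR, adjusted p = 0.309). For 13 regulators of *Bdnf* transcription the count was 0 as well, with 7 at an unadjusted p below 0.05 (4 higher, 3 lower). The median log2 fold change of the 13 was 0.074. *Creb1*, which encodes CREB, was at -0.34 (edgeR, adjusted p = 0.0697) and *Mef2a* at -0.27 (edgeR, adjusted p = 0.0703), and both were near 0 after the GC and length correction, at -0.033 and -0.049. Of 10 genes that respond to BDNF and to activity, 0 were called and 5 had an unadjusted p below 0.05 (3 higher, 2 lower). *Fos* was at -0.59 (edgeR, adjusted p = 0.0789) and *Junb* at 0.44 (edgeR, adjusted p = 0.146), and after the correction they were at -0.69 and 0.12.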

How the data were processed

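RNA from the hippocampus of 3 WT and 3 Ube3a m-/p+ mice had been sequenced. The authors deposited counts, 1 unnormalized table per mouse with a whole number of reads for each gene symbol, as htseq-count writes them. The submitters' processing notes list STAR 2.7.4a, HTSeq and mm10, while the annotation and the strand setting are not given in the sources used here. Reads on no gene made up 54.1% to 55.05% of those listed and stayed out of library sizes. CPM here is relative to the total gene counts of a library. Counts were kept by filterByExpr, scaled by TMM and tested with edgeR 4.0.16 (R 4.3.3) by the quasi-likelihood F test, robust, with genotype as the only factor, two-sided. Intervals are the log2 fold change plus or minus a t quantile times its standard error. Single values were compared by exact permutation of log2(CPM + 0.5). The edgeR p-values set the genotype difference against the spread between single mice, estimated with information shared across genes. The permutation p ranks the difference among the 20 splits of the mice. Genotype and the GC gradient of the libraries run together, and these p-values do not separate them.

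The correction fitted natural splines (5 degrees of freedom) to each library, on GC content and on length, taken from a gene's longest transcript in GENCODE M21. Alternatives were DESeq2 1.42.0, other scaling and filters, the replicate number as a block, this correction, leaving out each mouse, an unadjusted p and no fold threshold. Steps were tested on simulated data. The 6 genes and all lists were chosen with earlier results of these data known. Named genes are the 6, the called genes of each pathway list or else the 2 with the smallest p, 2 genes most alike to each of the 6, and *Ube3a*. *Arc*, *Bex3*, *Ntf5* and the markers *Slc1a2*, *Igf2*, *Col1a1*, *Rgs5*, *Pcp4*, *Mobp* and *Lamp5* fall outside this rule and were named after their values were seen. In the main fit the other marker lists held 0 called genes among oligodendrocyte, microglia, choroid plexus, interneuron and general neuron markers, and 1, *Pcp4*, among pyramidal cell markers. After the GC and length correction 3 of the 88 markers of all lists were called, against 0.648% of all genes. These were *Pcp4* (0.49, edgeR, adjusted p = 0.0131), *Mobp* of oligodendrocytes (-0.33, edgeR, adjusted p = 0.0432) and *Lamp5* of interneurons (-0.52, edgeR, adjusted p = 0.0161). Results for some listed pathway genes are not reported here.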

Additional observations from a re-analysis of the deposited data

How the results depend on the processing

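The number of the 6 genes called was 0 under every alternative except 2. With an unadjusted p and the fold threshold it was 1, *Ngfr*, where 2832 of 14445 genes passed. Without both mice numbered 1 it was 1, *Bdnf*, at -0.30, where 28.3% of all genes were called. With each mouse left out it stayed at 0. Without WT mouse 2, WT mouse 3 or Ube3a m-/p+ mouse 2, however, the whole table held 0 called genes. It held 2 without Ube3a m-/p+ mouse 3 and 0 with the replicate block. In those fits a count of 0 of the 6 therefore says little about them. *Ntf3*, *Ntrk2* and *Ngfr* kept their direction in every fit that tested them, with log2 fold changes of 0.15 to 0.31, -0.19 to -0.029 and 0.69 to 1.36 with 1 mouse left out. These fits share libraries, so the kept directions are a description only. In the main fit *Ngfr* passed the filter only through the Ube3a m-/p+ mice. *Ngfr* could not be tested with at least 10 counts in every sample, and DESeq2 gave no adjusted p for *Ntf3* and *Ngfr*. *Bdnf* ran from -0.26 to -0.15 and *Ntrk3* from -0.22 to -0.15 with 1 mouse left out. *Bdnf* came within its SE of 0, with a changed sign, with the GC and length correction (0.028), also with the replicate block (0.029). *Ntrk3* did the same with the correction (0.0021) and kept its sign near 0 with the block added (-0.0086). *Sort1* ran from -0.044 to 0.037 with 1 mouse left out. It changed sign without WT mouse 1 (0.037) and without both mice numbered 1 (0.030), each within its SE of 0. The *Ntrk3* to *Ntrk2* ratio changed sign without Ube3a m-/p+ mouse 1 (0.0051) or 2 (0.016) and with the correction (0.056). The *Bdnf* to *Ntrk2* ratio changed sign with the correction (0.095), and the cause was not tested. With 1 mouse left out these ratios ran from -0.19 to 0.016 and from -0.17 to -0.0025. The ratio of *Ngfr* to *Ntrk2* ran from 0.88 to 1.48 and that of *Sort1* to *Ngfr* from -1.40 to -0.73.

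*Ube3a* was at -0.58 (adjusted p = 0.0363, edgeR) and was not called with the replicate block (-0.57), the correction (-0.20) or both (-0.19), and it ran from -0.73 to -0.48 with 1 mouse left out, called only without WT mouse 1 or Ube3a m-/p+ mouse 1. Over all genes tested the main count was 290. There were 951 with DESeq2, 1176 without a filter, 0 with the replicate block (edgeR, 2422 at an unadjusted p below 0.05), 92 with the correction, 13 with both, 2832 at an unadjusted p below 0.05 with the fold threshold and 4138 without both mice numbered 1. Of the pathway genes 3 were called, and 10, 15, 0, 1, 0, 28 and 49 under the same settings in that order. With 1 mouse left out that count ran from 0 (edgeR, without WT mouse 2, WT mouse 3 or Ube3a m-/p+ mouse 2, with 2075 to 2159 at an unadjusted p below 0.05) to 2582 (without WT mouse 1), with 2 without Ube3a m-/p+ mouse 3 and 1816 without Ube3a m-/p+ mouse 1. The pathway count ran from 0 to 39. The replicate numbers do not pair the mice by any label, and same-numbered mice did not deviate together, with correlations across genes of -0.285, -0.177 and -0.311. With the replicate block *Bdnf*, *Ntrk3* and *Ngfr* were at -0.20, -0.19 and 1.04. Depth limits *Ngfr* and *Ntf3*, where counting noise alone gives a spread of 21.7% to 34.6% and 11.4% to 13.7%.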
